A study of Gallus gallus with 6 samples.

Results

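The genes described here encode the core machinery of nuclear transcription: subunits of RNA polymerases I, II and III, the general transcription factors, the Mediator complex and the TBP-associated factors (TAFs). They were chosen by name: a probe set was taken when its only gene symbol began with POLR1, POLR2, POLR3, GTF2 or GTF3, or with MED or TAF followed by a digit. Each gene was represented by its probe set with the highest mean over all 6 arrays. This gave 81 genes (171 probe sets) of the 13009 genes on the array that had probe sets with a single symbol. The rule itself used no measured difference, but the members were listed with earlier results of these data known.

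The RNA came from primary chicken monoblasts, immature precursors of monocytes and macrophages, of the Brown Leghorn breed. In 3 cultures the cells had been transformed by the deltaP form of v-Myb, a viral oncoprotein that acts as a transcription factor. In the other 3 the transforming protein was wild type v-Myb. Both groups therefore carry a v-Myb oncoprotein, no untransformed cells were compared, and the labels give neither the alteration in deltaP nor whether a culture was a clone or came from several birds. The title of the study concerns INK4A and the leucine zipper region of v-Myb, not the transcription machinery.

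RNA polymerase I transcribes the ribosomal RNA precursor, RNA polymerase II the messenger RNAs, and RNA polymerase III transfer RNAs and other short RNAs. TFIID, made of TBP and TAFs, together with the TFIIA to TFIIH factors, places RNA polymerase II at promoters, and TFIIIA, TFIIIB and TFIIIC do so for RNA polymerase III. Mediator passes signals from DNA-bound activators to RNA polymerase II, and a detachable kinase module of Mediator controls that contact. In myeloid cells these complexes serve activators such as Myb, which brings coactivators to the promoters of its target genes.

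Values are log2 expression values as deposited, 1 per probe set and array. For every probe set the same-numbered deltaP and wild type values had the same sum in replicates 1, 2 and 3, so the table holds 3 independent differences, called pairs below. A single array's value is thus a level centred within its pair, and errors are given as the SD of the 3 pair differences. The groups of a gene are free of overlap exactly when the 3 pairs share a sign. A gene was tested when its log2 value was over 4 in at least 3 arrays. Differences are deltaP minus wild type, tested with limma, with replicate number as the block, and adjusted over all 7753 tested genes. The number of arrays limits the precision, and with 3 pairs an exact sign-flip test cannot give a two-sided p below 0.25.

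Markers of the labelled cell type were present, as were those of other blood cells. Of 18 monocyte and macrophage markers with a probe set, 16 passed the filter, among them CSF1R, the macrophage growth factor receptor, with means of 12.51 in deltaP and 12.82 in wild type cells. Summed log2 values of these 18 markers ranged from 176 to 179 on the deltaP arrays and also from 176 to 179 on the wild type arrays. Such sums can hide opposite differences: of the 16 tested markers 8 had a mean above 0 and 8 below, between -0.62 and 0.66. At an unadjusted p under 0.05 in limma there were 4 of the 16, against 9.92% of all tested genes. Their medians by pair were 0.16, 0.04 and -0.23. All 9 heterophil markers with a probe set also passed the filter, with sums of 104 to 109 in deltaP and 108 to 114 in wild type cells. Of these 9, 3 had a mean above 0 and 6 below, between -2.31 and 2.28, with a median of -0.45. Their medians by pair were -0.31, -1.36 and 0.05, and 4 of the 9 had an unadjusted p under 0.05 in limma. Some markers of other cells were bright and differed between the groups: AvBD4 (heterophil) averaged 8.63 in deltaP and 10.95 in wild type cells, SERPINB10B (heterophil) 9.91 and 7.63, TARP (lymphocyte) 7.69 and 10.75, and F13A1 (thrombocyte) 11.14 and 12.24. Fewer of the other markers passed: 4 of 8 erythroid, 5 of 11 lymphocyte, 1 of 4 thrombocyte and 1 of 10 fibroblast genes. The erythroid list named ALAS2, but ALAS1 was taken for it and is counted among the 4 (means of 7.99 in deltaP and 7.79 in wild type cells). The fibroblast gene COL1A1, with means of 2.26 in deltaP and 2.47 in wild type cells, stayed near background. In pair 3 the deltaP array was higher than its wild type partner by a median of 0.68 in the poly-A spike controls and of 0.65 in 14 proliferation genes, all 14 of them higher. The hybridization controls were higher in that pair as well, by a median of 0.5. The part of these differences in the results below was not tested.

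The transcription machinery differed little between deltaP and wild type cells. In bulk RNA such as this, fewer cells of a type and less RNA per cell cannot be told apart. Of the 81 genes, 75 were bright enough to test. None of the 75 passed an adjusted p of 0.05 in limma with the block, as none of all 7753 genes did (0%). At an unadjusted p under 0.05 there was 1 member, POLR2E, which is 1.33% of the tested members against 9.92% of all tested genes. Without the block, limma called 2 members, POLR2E and POLR3B, where 8.23% of all genes were called. The mean difference was past 1 log2 unit in 1 member, TAF5, as it was in 2.08% of all tested genes.

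The small differences leaned upward. A mean above 0 was found for 55 of the 75 members (73.3%), against 51.3% of all tested genes, and the median difference was 0.08 log2 units, against 0.01 over all tested genes. This lean was present in each pair: 49 members were higher in deltaP in pair 1, 48 in pair 2 and 47 in pair 3, which is 65.3%, 64.0% and 62.7%. The background shares in the same pairs were 54.2%, 53.9% and 45.8%. The members' medians by pair were 0.07, 0.07 and 0.08, against 0.03, 0.02 and -0.04 for all genes. Since the members were listed with earlier results known and make up shared complexes, no p is given for the lean.

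**Figure D1:**
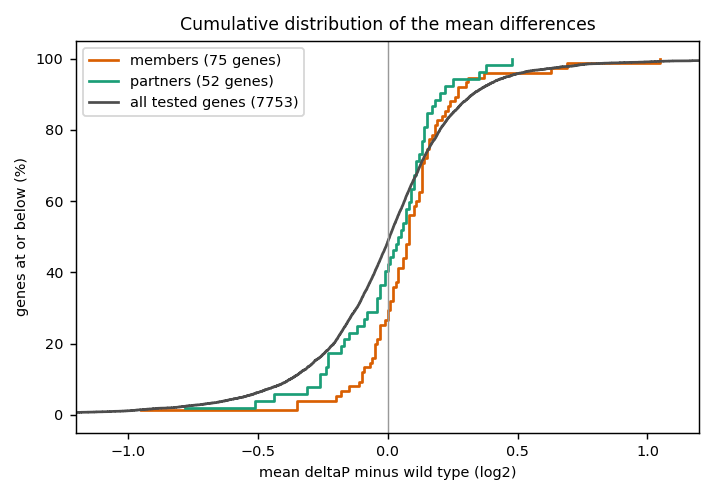
Cumulative share of genes (y axis, percent) at or below each mean difference, deltaP minus wild type (x axis, log2 units, cut at 1.2 on both sides), for 75 tested members, 52 tested partner genes and all 7753 tested genes. The curve of the members crosses 0 lower than that of all genes, since 55 of 75 members were above 0, and most of its rise lies within a narrow band to the right of 0.

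The members also varied less than most genes. Their median absolute difference was 0.11 log2 units, against 0.16 over all tested genes, and their median SD between pairs was 0.2, against 0.27. For 70 members (93.3%) the 95% confidence interval of limma lay within 1 log2 unit of 0, which leaves out a 2-fold change in either direction, against 84.0% of all tested genes. Among genes with a mean log2 value of 8 or more the share was 52 of 52 members and 93.0% of all genes. The 5 members whose interval reached past 1 log2 unit were GTF2A1L, GTF2E2, GTF3C6, TAF4B and TAF5.

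In 20 members deltaP was higher in all 3 pairs (17.5% of all tested genes were), and in 6 it was lower in all 3 pairs (15.8% of all tested genes were). The remaining 49 had pairs of both signs. The 20 spanned every class except RNA polymerase II. They were POLR1E, POLR3B, POLR3F, GTF2A1, GTF2H3, GTF2H5, GTF3C2, GTF3C6, MED1, MED10, MED15, MED17, MED29, TAF1, TAF1D, TAF4B, TAF5, TAF9, TAF11 and TAF13, with mean differences of 0.04 to 1.05. The 6 were POLR2E, GTF2E2, MED8, MED9, MED24 and TAF12, with mean differences of -0.95 to -0.07.

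**Figure D2:**
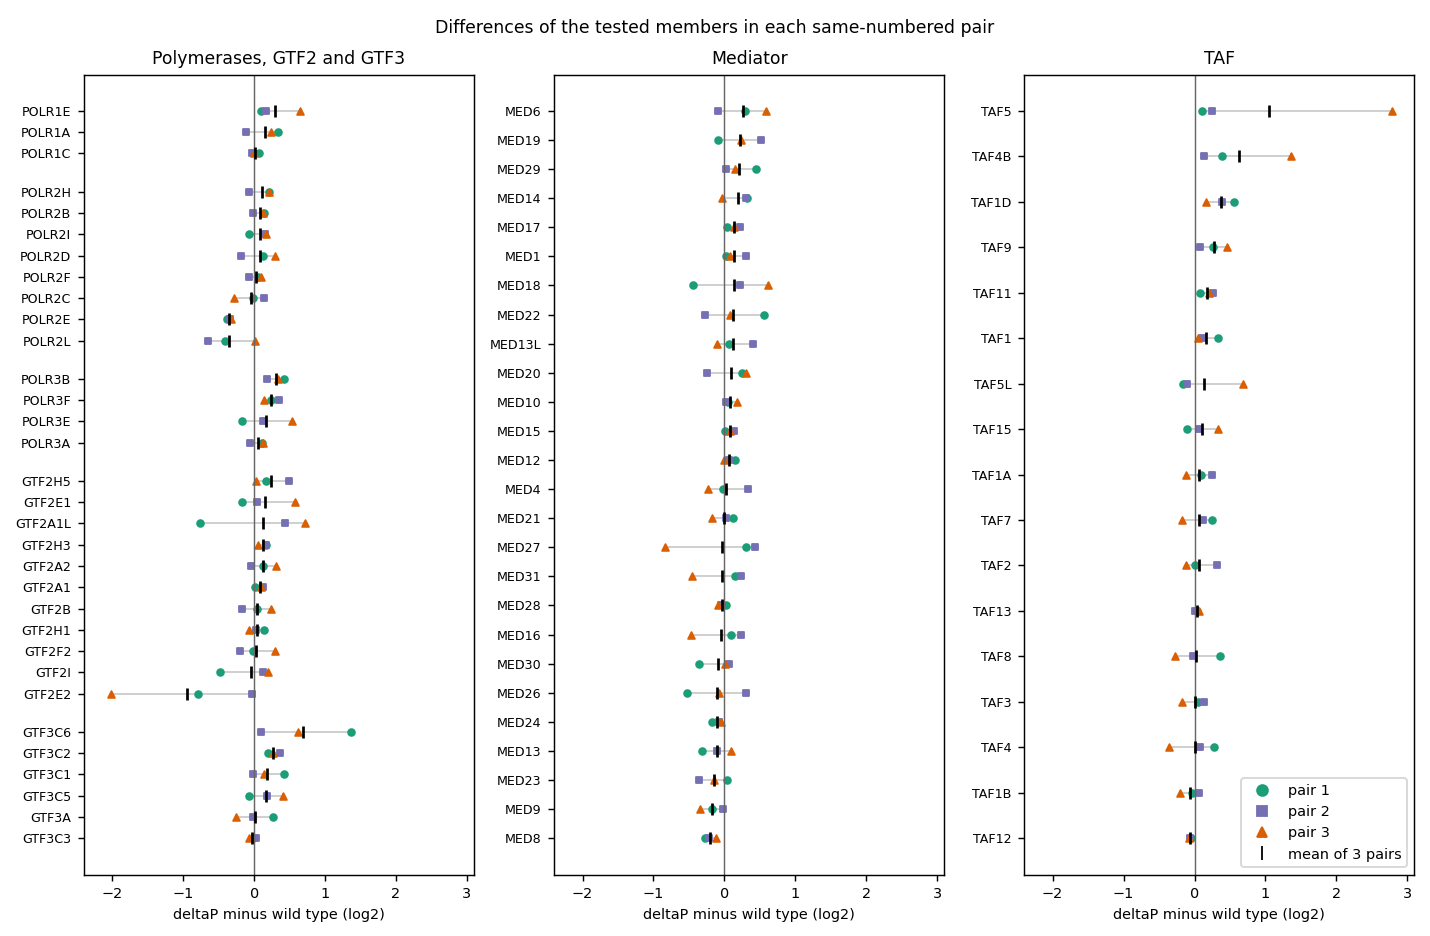
Difference between deltaP and wild type (x axis, log2 units) for each of the 75 tested members (rows, grouped by class and sorted by mean), with 1 symbol per same-numbered pair and a black tick at the mean of the 3 pairs. Most rows lie close to 0, and the widest are TAF5 and GTF2E2, whose pair 3 values are 2.78 and -2.02.

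RNA polymerase I genes were represented by 5 members, of which 3 could be tested, and all 3 had a mean above 0. POLR1A, the largest and catalytic subunit, had values of 9.04, 8.81 and 8.99 in deltaP cells, against 8.7, 8.92 and 8.75 in wild type cells (replicates 1, 2 and 3). Its pair 2 difference of -0.11 ran against 0.34 and 0.23 in the other pairs, so the groups overlapped (mean 0.15 ± 0.23, SD, n = 3 pairs). POLR1E, a subunit particular to this polymerase, had 9.63, 9.67 and 9.9 in deltaP cells, against 9.54, 9.5 and 9.27 in wild type cells. All 3 deltaP arrays lay above all 3 wild type arrays, and the mean difference of 0.3 ± 0.29 (SD, n = 3 pairs) had an adjusted p of 0.592 in limma. Without replicate 3 the mean was 0.13. The dimmer tested probe set of POLR1E was also higher in each pair, by 0.25, 0.07 and 0.26. POLR1C, a subunit shared with RNA polymerase III, differed by 0.01 ± 0.05, and the partner gene TWISTNB, a polymerase I subunit under another name, by 0.07 ± 0.23. POLR1B, which completes the catalytic centre, and POLR1D, the partner of POLR1C, stayed below the filter, with mean log2 values of 2.27 and 2.24 over all arrays.

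The SL1 complex, which carries TBP to ribosomal RNA genes for RNA polymerase I, had 3 tested TAFs. TAF1D had 8.84, 8.75 and 8.64 in deltaP cells, against 8.28, 8.36 and 8.48 in wild type cells. It was higher in deltaP in every pair without overlap, 1.29-fold on average (log2 difference 0.37 ± 0.2, SD, n = 3 pairs, adjusted p = 0.516 in limma). Its 4 tested probe sets did not share a direction, with mean differences of 0.37, 0.16, -0.09 and 0.09 in order of brightness. The other SL1 genes, TAF1A and TAF1B, had mean differences of 0.07 and -0.06 and overlapping groups.

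RNA polymerase III genes had a median difference of 0.2 log2 units, with 4 of 4 tested members above 0. POLR3B, the subunit that forms the active centre together with POLR3A, had 8.88, 8.76 and 8.84 in deltaP cells, against 8.46, 8.58 and 8.5 in wild type cells. The groups were apart, and the difference of 0.31 ± 0.13 (SD, n = 3 pairs) corresponded to a 1.24-fold higher level, with an adjusted p of 0.556 in limma. Without the block, where the p-values of limma are too small, its adjusted p was 0.0446. Over the 11 alternatives that could be run for POLR3B, the adjusted p lay between 0.0446 and 1. Leaving out probe sets of the type that can bind several transcripts left none for POLR3B. Both dimmer tested probe sets of POLR3B had higher means in deltaP too, by 0.27 and 0.51.

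POLR3F, which belongs to a subcomplex used in initiation, had 9.6, 9.66 and 9.55 in deltaP cells, against 9.37, 9.31 and 9.41 in wild type cells. Again the groups were apart (0.24 ± 0.11, SD, n = 3 pairs, adjusted p = 0.595 in limma). POLR3A, the largest subunit, differed by 0.06 ± 0.1 and POLR3E by 0.16 ± 0.36, each with 1 pair below 0. POLR3G and POLR3K stayed below the filter, with means of 3.35 and 2.24 over all arrays. For CRCP, a further polymerase III subunit that goes by another name, the difference was -0.23 ± 0.34, so the upward direction did not extend to every subunit.

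TFIIIC binds the internal promoters of transfer RNA genes and recruits TFIIIB. Of its 5 tested genes 4 had a mean above 0. GTF3C6 had 7.06, 6.43 and 6.69 in deltaP cells, against 5.7, 6.33 and 6.07 in wild type cells. The groups were apart but uneven, with pair differences of 1.36, 0.1 and 0.62, and the mean of 0.69 ± 0.63 (SD, n = 3 pairs) was 0.36 without replicate 1 (adjusted p = 0.504 in limma with all pairs). The only probe set of GTF3C6 is of the type that can bind several transcripts. GTF3C2 was steadier, with differences of 0.19, 0.36 and 0.27 around a dim mean level of 4.5. GTF3C1 and GTF3C5 differed by 0.18 and 0.17, and GTF3C3 by -0.03. GTF3A, the zinc finger factor of a small ribosomal RNA gene, had differences of 0.27, -0.01 and -0.25, which average to 0.01. Of the TFIIIB partner genes, BDP1 differed by -0.03 and BRF1 by -0.01.

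**Figure D3:**
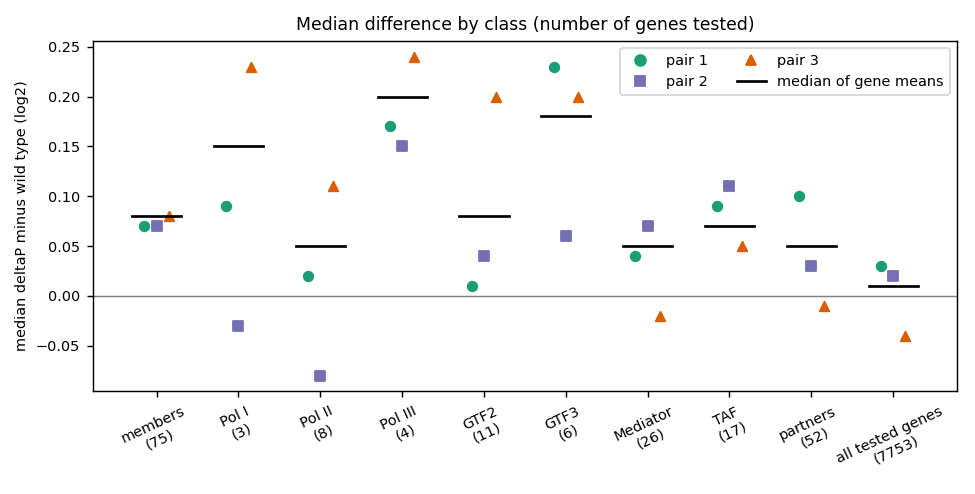
Median difference between deltaP and wild type (y axis, log2 units) in each pair (symbols) and of the gene means (bars) for the 75 members, their 7 classes, 52 partner genes and all 7753 tested genes, with the number of tested genes in brackets. The Pol III, GTF2, GTF3 and TAF classes lie above 0 in every pair, Pol I and Pol II fall below 0 in pair 2, and Mediator falls below 0 in pair 3.

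RNA polymerase II and the subunits common to all 3 polymerases held the clearest lower value. POLR2E encodes a small subunit that is part of every nuclear RNA polymerase. It had 12.22, 12.24 and 12.25 in deltaP cells, against 12.6, 12.58 and 12.57 in wild type cells. All wild type arrays lay above all deltaP arrays, with pair differences of -0.39, -0.34 and -0.33. The mean of -0.35 ± 0.03 (SD, n = 3 pairs; 95% confidence interval -0.59 to -0.11) corresponded to a 1.27-fold higher level in wild type cells.

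For POLR2E, limma with the block gave an adjusted p of 0.341, from 0.0121 before adjustment. Without the block, where p-values are too small, the adjusted p was 0.0102, with a range of 0.0102 to 1 over the alternatives. Its mean difference ranged from -0.36 to -0.33 over the same alternatives. POLR2L, another shared subunit, had 11.67, 11.54 and 11.88 in deltaP cells, against 12.08, 12.2 and 11.86 in wild type cells. It was lower in pairs 1 and 2 and level in pair 3, and the groups overlapped (-0.35 ± 0.34, SD, n = 3 pairs, adjusted p = 0.522 in limma). Leaving out replicate 2 brought it to -0.2. The shared subunits POLR2F and POLR2H went the other way by small amounts, 0.02 and 0.11.

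The 4 measured subunits specific to RNA polymerase II were near 0. POLR2A, the largest subunit, had no probe set under the naming rule, nor had POLR2G, POLR2J and POLR2K. POLR2B, which forms the active centre with the largest subunit, had 11.54, 11.46 and 11.53 in deltaP cells, against 11.4, 11.47 and 11.4 in wild type cells. The groups overlapped, and the interval of its mean difference of 0.08 ran from -0.18 to 0.35. POLR2C and POLR2D, which take part in assembly and in the stalk, differed by -0.05 and 0.08, and POLR2I, a subunit near the jaw, by 0.08. None of these genes had the same sign in all 3 pairs.

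**Figure D4:**
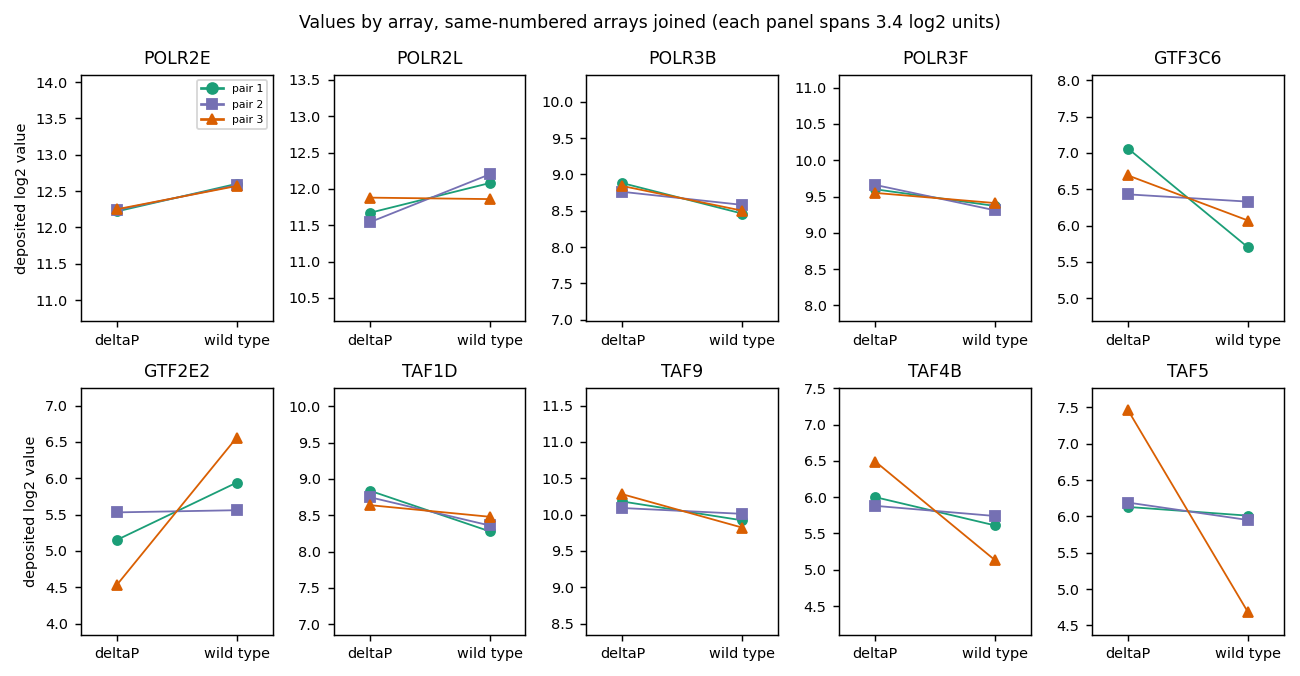
Deposited log2 values (y axis) of 10 members in the deltaP (left) and wild type (right) array of each pair, joined by a line, with each panel spanning the same 3.4 log2 units. The lines of POLR2E slope up towards wild type in parallel, those of POLR3B and POLR3F slope down, and in TAF5 and TAF4B pair 3 is the steepest.

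The general factors of RNA polymerase II had 11 tested genes, 9 of them with a mean above 0, and a class median of 0.08. GTF2B, or TFIIB, the bridge between TBP and the polymerase, had 11.3, 11.2 and 11.4 in deltaP cells, against 11.26, 11.36 and 11.16 in wild type cells, with overlapping groups and a difference of 0.04 ± 0.2 (SD, n = 3 pairs). TFIIA, which steadies TBP on DNA, showed 0.08 ± 0.07 for GTF2A1 and 0.13 ± 0.17 for GTF2A2. The related GTF2A1L, at the edge of the filter with a mean level of 3.96, had pair differences of -0.77, 0.43 and 0.72. GTF2F2 of TFIIF differed by 0.02, and GTF2I, a factor of the TFII-I family, by -0.05. Its relative GTF2IRD1 was not tested (mean level 2.98).

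TFIIE, which brings TFIIH to the promoter, held the lowest mean of all members. GTF2E2, its smaller subunit, had 5.15, 5.53 and 4.53 in deltaP cells, against 5.94, 5.56 and 6.56 in wild type cells. The groups were apart by a narrow margin, since pair 2 differed by -0.03, pair 1 by -0.79 and pair 3 by -2.02 (mean -0.95 ± 1.01, SD, n = 3 pairs, adjusted p = 0.514 in limma). Without replicate 3 the mean was -0.41. The other tested probe set of GTF2E2 had -0.43, 0.31 and -0.08, a mean of -0.07. GTF2E1, the larger subunit, differed by 0.15 ± 0.39.

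TFIIH opens promoter DNA and phosphorylates the polymerase. Its core genes GTF2H1, GTF2H3 and GTF2H5 had means of 0.04, 0.13 and 0.23, and GTF2H3 and GTF2H5 were higher in all 3 pairs. The helicase partner ERCC3 differed by 0.07 ± 0.03. In the kinase part of TFIIH, CDK7 differed by 0.2 ± 0.42, CCNH by -0.01 ± 0.3, and the assembly factor MNAT1 by -0.23 ± 0.04, lower in all 3 pairs (adjusted p = 0.658 in limma).

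TFIID carried the most members that were higher in all pairs, 6 of its 12 tested genes, against 17.5% of all tested genes. Of the 12, 11 had a mean above 0 (91.7%, against 51.3% of all tested genes), though most by little, with a median of 0.06. TAF3 and TAF4 are counted above 0 with means that round to 0. TAF1, the largest subunit, had 9.21, 9.1 and 9.07 in deltaP cells, against 8.88, 8.99 and 9.02 in wild type cells. The groups were apart and the difference was 0.16 ± 0.15 (SD, n = 3 pairs, adjusted p = 0.752 in limma). Its dimmer tested probe set had 0.57, 0.13 and 0.04. TAF9, a histone-fold subunit shared with the SAGA coactivator, had 10.18, 10.09 and 10.28 in deltaP cells, against 9.92, 10.01 and 9.82 in wild type cells. It was higher without overlap, 1.2-fold on average (0.27 ± 0.19, adjusted p = 0.577 in limma). The histone-fold genes TAF11 and TAF13 were also higher in each pair, by means of 0.18 and 0.04, while TAF12, of the same fold, was lower in each by a mean of 0.07 (difference -0.07 ± 0.02).

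TAF5, a scaffold subunit of TFIID, had the largest mean difference of the 75 members, but 1 pair set it. Its values were 6.13, 6.19 and 7.46 in deltaP cells, against 6.01, 5.95 and 4.68 in wild type cells. Pairs 1 and 2 differed by 0.11 and 0.25 and pair 3 by 2.78, which gives a mean of 1.05 ± 1.5 (SD, n = 3 pairs, adjusted p = 0.586 in limma) and 0.18 without replicate 3. The other tested probe set of TAF5 had 0.05, 0.18 and 0.28. TAF4B had 6.0, 5.88 and 6.49 in deltaP cells, against 5.61, 5.74 and 5.13 in wild type cells. It encodes a relative of TAF4 known from mouse germ cells, and the same pair stood out, with 0.39, 0.14 and 1.36 (mean 0.63 ± 0.64, adjusted p = 0.559 in limma) and a mean of 0.26 without replicate 3. TAF4 itself differed by 0.28, 0.08 and -0.36, a mean of 0. In pair 3 the proliferation genes and the spike controls were also higher in deltaP, by the medians given above.

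The groups of the remaining TAFs overlapped. TAF2, TAF3, TAF7 and TAF8 had means between 0 and 0.07, and every dimmer tested probe set of TAF2 had a mean below 0, between -0.16 and -0.08. TAF5L, the SAGA relative of TAF5, had -0.16, -0.11 and 0.68, and the RNA-binding protein gene TAF15 had -0.1, 0.06 and 0.33. TBP, which is no member by its name, had 10.07, 10.19 and 10.34 in deltaP cells, against 10.45, 10.33 and 10.18 in wild type cells, with overlapping groups and a difference of -0.12 ± 0.28 (SD, n = 3 pairs). Both dimmer tested probe sets of TBP were lower in deltaP in each pair, one with differences of -0.32, -0.16 and -0.28 (mean -0.25) and the other with a mean of -0.02.

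Mediator was the largest class, with 26 of 27 members tested, and the most evenly divided. It had 14 genes with a mean above 0 and 12 below, between -0.2 and 0.26, a median of 0.05, and 95% intervals within 1 log2 unit of 0 for all 26. The head module, which contacts the polymerase, had 5 of 6 genes above 0. By pair, deltaP was higher in 4, 2 and 5 of the 6 head genes, with medians of 0.14, -0.15 and 0.22. MED6 had 10.92, 10.73 and 11.07 in deltaP cells, against 10.63, 10.82 and 10.49 in wild type cells. Pair 2 ran against the others, so the groups overlapped (0.26 ± 0.34, SD, n = 3 pairs, adjusted p = 0.631 in limma). Its mean was 0.44 without replicate 2 and 0.1 without replicate 3. MED17, the core of the head, differed by 0.13 ± 0.09 and was higher in all 3 pairs. MED18, MED20 and MED22 had means of 0.13, 0.1 and 0.12 and mixed signs. MED8 was the exception, with 5.3, 5.34 and 5.39 in deltaP cells, against 5.59, 5.55 and 5.5 in wild type cells. All its deltaP arrays lay below all wild type arrays (-0.2 ± 0.08, adjusted p = 0.78 in limma).

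The middle module had 4 genes above and 4 below 0. MED1, the subunit bound by nuclear receptors, had 9.46, 9.61 and 9.49 in deltaP cells, against 9.45, 9.3 and 9.42 in wild type cells, and both of its tested probe sets were higher in every pair, with means of 0.13 and 0.14. MED9 had values between 10.92 and 11.08 in deltaP cells, against 11.19, 11.1 and 11.26 in wild type cells. It was lower without overlap (-0.18 ± 0.16, SD, n = 3 pairs, adjusted p = 0.67 in limma). MED10 and MED19 had means of 0.08 and 0.22, MED4 of 0.03, MED21 of -0.01, MED26 of -0.1 and MED31 of -0.03. MED14, the backbone that joins the modules, had 10.88, 10.87 and 10.7 in deltaP cells, against 10.56, 10.57 and 10.74 in wild type cells. Pairs 1 and 2 were higher in deltaP and pair 3 was level (0.19 ± 0.2, adjusted p = 0.672 in limma).

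The tail, where many activators dock, had 6 of 8 means below 0 and a median of -0.04. In pairs 1 and 2 deltaP was higher in 6 and 5 of the 8 genes (medians 0.03 and 0.05), and in pair 3 in 3 of them (median -0.07). Without replicate 3 the means of MED16 and MED27 turned to 0.16 and 0.37. Those of MED23, MED24, MED28 and MED30 stayed below 0, at -0.16, -0.12, -0.02 and -0.14. MED23 differed by -0.15 ± 0.2, MED24 by -0.1 ± 0.06 in the same direction in each pair, MED30 by -0.09, MED16 by -0.05 and MED28 by -0.04. MED15 and MED29 were above 0 in each pair, with means of 0.08 and 0.21. The second tested probe set of MED15 ran the other way in each pair, with -0.01, -0.27 and -0.39 (mean -0.22), and unlike the first it is not of the type that can bind several transcripts. The difference between head and tail was not tested. MED27 could not be read from a single probe set. Its brightest one had pair differences of 0.3, 0.43 and -0.83, the next -0.2, -0.8 and -1.33, and the dimmest tested one 1.54, 3.55 and 0.33, so that the mean was -0.03, -0.78 or 1.81.

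The kinase module of Mediator consists of MED12, MED13, cyclin C and a kinase, either CDK8 or its close relative CDK19. None of its MED genes had 1 sign in all pairs: MED12 differed by 0.07 ± 0.08, MED13 by -0.11 ± 0.2 and MED13L by 0.12 ± 0.26, and MED12L was not tested (mean level 2.31). A dimmer MED12 probe set had 0.21, 0.13 and 1.33, with pair 3 again apart. The kinases belong to a list of 52 tested partner genes, from which they were named for their low unadjusted p. Unlike the MED genes of the module, they were lower in deltaP in all 3 pairs. This held for 5 of the 52 partner genes, the kinases included, and for 15.8% of all tested genes. CDK8 had 9.14, 9.11 and 9.48 in deltaP cells, against 10.12, 10.16 and 9.79 in wild type cells. No deltaP array reached the lowest wild type array, and the level was 1.72-fold higher in wild type cells (log2 difference -0.78 ± 0.41, SD, n = 3 pairs).

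CDK19 had 11.06, 11.03 and 10.79 in deltaP cells, against 11.37, 11.4 and 11.64 in wild type cells. Its groups were apart as well, with a 1.42-fold higher level in wild type cells (-0.51 ± 0.3, SD, n = 3 pairs). The second tested probe set of each kinase gene was lower in every pair too, with means of -0.61 for CDK8 and -0.49 for CDK19. The limma p was 0.00602 for CDK8 and 0.0133 for CDK19 before adjustment, and 0.278 and 0.345 after it. Without the block, where p-values are too small, the adjusted p was 0.033 and 0.0429. Over the alternatives it ran from 0.033 to 1 for CDK8 and from 0.0429 to 0.913 for CDK19. Leaving out replicate 3 gave -1.02 for CDK8 and -0.34 for CDK19. CCNC, which encodes cyclin C, differed by 0.24, 0.19 and 0.01, in the other direction (mean 0.15 ± 0.12).

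**Figure D5:**
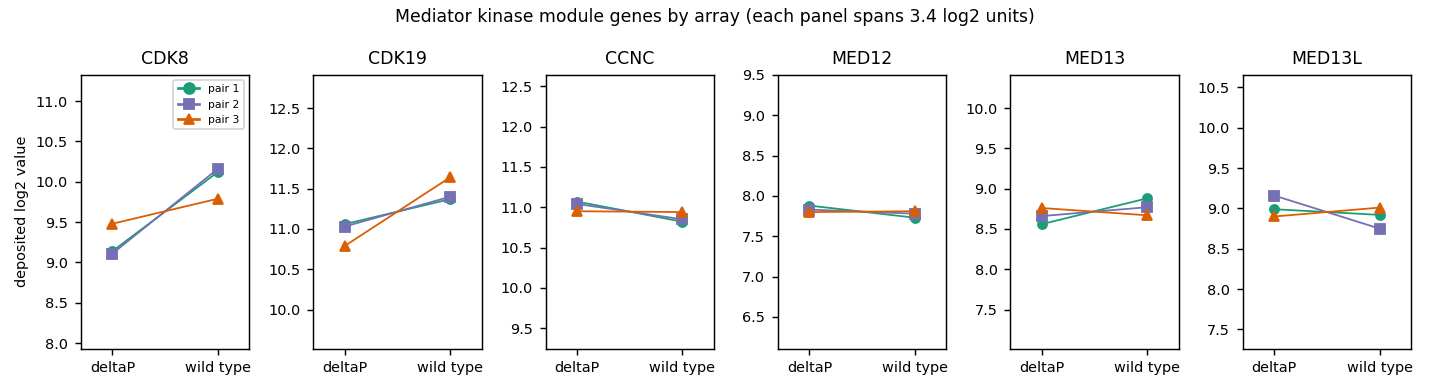
Deposited log2 values (y axis) of the Mediator kinase genes CDK8 and CDK19, of CCNC and of MED12, MED13 and MED13L in the deltaP (left) and wild type (right) array of each pair, joined by a line, with each panel spanning 3.4 log2 units. The CDK8 and CDK19 lines climb towards wild type in all 3 pairs (means -0.78 and -0.51). The lines of MED12, MED13 and MED13L slope both ways, with single pairs as far from 0 as 0.41 in MED13L and -0.31 in MED13.

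Among the 52 tested partner genes as a whole, 31 (59.6%) were above 0, against 51.3% of all tested genes. Their median was 0.05, against 0.01 over all tested genes, and none passed the adjusted threshold with the block. At an unadjusted p under 0.05 there were 3 (5.77%, against 9.92% of all tested genes): CDK8, CDK19 and RTF1, an elongation factor linked to the PAF1 complex. RTF1 had 8.55, 8.56 and 8.67 in deltaP cells, against 8.26, 8.25 and 8.14 in wild type cells. It was 1.3-fold higher without overlap (0.38 ± 0.14, SD, n = 3 pairs, adjusted p = 0.502 in limma). The dimmer tested probe set of RTF1 had -0.13, 0.37 and 0.36 (mean 0.2), so there the groups overlapped. TTF1, the terminator protein of RNA polymerase I, was 1.28-fold higher (0.35 ± 0.18) and its other tested probe sets had means of 0.41 and 0.08. DR1, a TBP-binding repressor, was 1.19-fold higher (0.25 ± 0.15). TFB1M, a mitochondrial factor, was 1.24-fold higher in wild type cells, with pair differences of -0.43, 0.14 and -0.65.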

How the data were processed

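Expression was measured on 6 Affymetrix chicken arrays, 3 deltaP and 3 wild type v-Myb cultures numbered 1 to 3 in the sample titles. The authors deposited log2 values for 38535 probe sets (96 controls); Partek 6.4 and GCRMA are named per the submitters' processing notes. GCRMA compresses dim probe sets. Sums of same-numbered arrays differed between replicates by at most 0.00013 log2 units, and deviations from the group means correlated at -1 in each pair. The replicate number had been removed before deposit, a step not given in the sources used here, so it was kept as a block (2 residual degrees of freedom). P-values thus measure the spread of pair differences; the labels do not say what same-numbered cultures share.

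Symbols came from the platform annotation of 2016, in which 27168 probe sets had 1 symbol, 177 several and 11094 none. Of the 81 members, 80 matched a RefSeq gene identifier (assembly GRCg7b). Of the 75 tested, 26 were represented by a probe set of the type that can bind several transcripts. limma 3.58.1 (R 4.3.3; lmFit, eBayes with intensity trend, two-sided, Benjamini-Hochberg) was fitted over 7753 genes. On 5 simulated tables of 7753 genes with 200 changed, it found 38.4% of 2-fold and 88.2% of 8-fold changes with the block. False calls averaged 5.2 with the block and 325 without it. The simulation shuffled the SDs of pair differences among genes and drew noise separately for each gene. It thus left out any link of spread to brightness and any shift of a whole array, so these rates need not hold for the real arrays.

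The members, lists and tests were chosen with earlier results of these data known. Genes named with full statistics followed a rule. It took members past the threshold, the 8 members of lowest p on either side of 0 and the central subunits. It also took the brightest and most different member of each class and members with discordant probe sets. Of the partner genes it took the 3 of lowest unadjusted p in each direction. Genes outside the rule are named to account for every member or its complex. Alternatives covered the block, trend, filter, probe set choice, centring, quantile normalization and leaving out each replicate. Leaving out probe sets that can bind several transcripts was added after seeing the data.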

Additional observations from a re-analysis of the deposited data

How the results depend on the processing

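No member passed the adjusted threshold under any of the 12 alternatives except without the replicate block, where 2 members, 3 partner genes and 638 of all genes did. The p-values of that fit are too small, as described above. Without the block 17 members (22.7%) had an unadjusted p under 0.05 in limma, against 27.3% of all tested genes. The count of members with an unadjusted p under 0.05 was 1 with all settings as reported (1.33%, against 9.92% of all tested genes). It was 2 without the intensity trend, with the mean of a gene's probe sets and with pairs centred on their median (2.67% each). Without shared probe sets it was 2 of 57 tested members (3.51%). It was 3 (4.0%) with the probe set of largest SD and 4 (5.33%) after quantile normalization. When a replicate was left out it ran from 1 to 5 (1.33% to 6.67%). The share of all tested genes in these other settings is not given, so the counts are not set against it. The probe set of largest SD called 2 of all genes, and leaving out a replicate 0 to 1. The members' median was 0.09 after quantile normalization, 0.07 without shared probe sets and 0.06 to 0.07 without a replicate. The Pol III median was 0.12 with no filter and 0.15 without shared probe sets, and without shared probe sets the Mediator and Pol II medians were both -0.02. Without a replicate the medians ran from 0.06 to 0.29 for Pol I, 0.16 to 0.25 for Pol III, -0.06 to 0.12 for GTF2, -0.02 to 0.09 for Mediator and 0.05 to 0.17 for TAF. MED27 turned to 0.33 with the mean of its probe sets and 1.81 with that of largest SD, and TAF1D to -0.09 with that of largest SD. Without a replicate GTF2B ran from -0.06 to 0.14, GTF3A from -0.13 to 0.13, MED27 from -0.27 to 0.37 and MED30 from -0.17 to 0.04. TAF5 was 0.17 without shared probe sets. The cause of these shifts was not tested.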

Other observations

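Genes that act after initiation went in both directions. The mean log2 difference was -0.44 for ELL2, an elongation factor (pairs -1.11, 0.08 and -0.3), beside the 0.38 of RTF1 given above. SUPT4H1 had a mean of -0.24 (pairs -0.43, 0.12 and -0.41). SUPT6H had a mean of -0.26 (pairs 0.25, -0.06 and -0.97), which was 0.09 without replicate 3. In the PAF1 complex, which travels with elongating RNA polymerase II, CTR9 differed by 0.06 ± 0.07, LEO1 by 0.09 ± 0.04 and CDC73 by 0.08 ± 0.48 (SD, n = 3 pairs each). The dimmer tested probe sets of CDC73 disagreed, one lower in each pair (mean -0.3) and the other higher in each (mean 0.15). Only the lower one is not of the type that can bind several transcripts. The pausing factor genes SUPT5H, NELFA, NELFB and NELFCD had mean log2 differences of 0.12, 0.11, 0.11 and 0.04, each with pairs of both signs. SUPT4H1, the partner of SUPT5H, had the -0.24 given above. CDK9, the kinase that releases paused polymerase, differed by 0.09 ± 0.22, and CCNT2, which encodes a cyclin partner of CDK9, by -0.26 ± 0.34. SNAPC4, of the complex that starts small nuclear RNA genes, had the highest mean of the partner genes, 0.48 ± 0.45. Its pair differences were 0.77, -0.04 and 0.7. The only tested probe set of SNAPC4 was dim, with a mean level of 4.46, and is of the type that can bind several transcripts. SNAPC1 and SNAPC5 had mean differences of -0.04 and 0.1. All of the genes named here had an adjusted p above the threshold in limma with the block.

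In the mitochondrial transcription system, POLRMT, the polymerase, differed by -0.04 ± 0.24, TFAM, which packages mitochondrial DNA, by 0.13 ± 0.11 and TFB2M by 0.01 ± 0.31. TFAM was higher in deltaP in 3 of 3 pairs. Each of the 5 tested TFB1M probe sets had a mean below 0, between -0.54 and -0.25. Their pair 2 differences, from brightest to dimmest, were 0.14, 0.23, 0.37, 0.37 and -0.06.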
